A study of Mus musculus with 6 samples.

Results

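Collagens, laminins and the other genes of basement membranes were examined in cultures of mouse cortical neurons that had received fibrils of α-synuclein or buffer alone. The members were chosen by symbol from a count table of 24411 genes. They were the 44 collagen chain genes (Col, a number, a, a number), the 11 laminin chain genes (Lama, Lamb or Lamc with a number) and 9 named genes, Fn1, Nid1, Nid2, Hspg2, Agrn, Sparc, Postn, Tagln and Acta2, which made 64 in all. Of these, 55 had enough counts to be tested. Col9a2, Col14a1, Col4a3, Col4a4, Lamc3, Col24a1, Col17a1, Col13a1 and Col6a6 did not, each with a mean below 1 count per 1000000 (CPM) in both groups.

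The cells came from the cortex of mouse embryos at day 18 and were primary cultures, so cell types other than neurons can be present. One group of 3 libraries (PFF 1 to 3) had mouse αSyn preformed fibrils (PFF), aggregates assembled outside the cell, added to the medium at 3.45 µM on day 10 in vitro. The other group of 3 libraries (PBS 1 to 3, titled vehicle) had phosphate-buffered saline (PBS). Total RNA was taken on day 18 in vitro, 8 days after the addition. The labels name no strain, genotype or transgene for either group. Nothing in them tells separate cultures from repeat libraries of 1 culture, so each p-value reflects the spread among these 6 libraries and that spread may be technical.

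Collagens are trimers of chains wound into a triple helix. Fibrillar collagens (types I, II, III, V, XI, XXIV and XXVII) assemble into the cables of interstitial matrix, and the fibril-associated collagens with interrupted helices (FACIT) decorate them. Basement membranes are thin sheets in which a laminin network, built from an α, a β and a γ chain, and a collagen IV network are bridged by nidogens and by the heparan sulfate proteoglycans perlecan and agrin. In brain, most fibrillar collagen is made by cells of the meninges and vessel walls, basement membranes surround vessels and line the pial surface, and agrin is also made by neurons.

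Library totals ranged from 9224974 to 10742383 estimated counts. Replicate 3 of both groups stood apart on the second principal component, with 19.5% of the variance. All 12 neuron markers were tested and 3 rose, with a summed level of 5296 to 5610 CPM in PBS and 5552 to 6122 CPM in PFF. Of the 10 endothelial markers Cldn5 and Tie1, and of the 8 mural cell markers Kcnj8, Abcc9 and Higd1b, had no count in any library. The endothelial list summed to 11.7 to 14.4 CPM in PBS and 9.63 to 13.0 CPM in PFF, with Egfl7 the most abundant. Fibroblast and meningeal markers summed to 250 to 352 CPM in PBS and 217 to 286 CPM in PFF, and most of that was Igfbp2 and Igf2, which other cell types also express. Microglia and macrophage markers summed to 178 to 283 CPM in PBS and 505 to 615 CPM in PFF, and 13 of 14 tested rose. Of 12 oligodendrocyte lineage markers 5 rose and 7 fell, with sums of 1022 to 1246 CPM in PBS and 1067 to 1395 CPM in PFF. In bulk RNA, fewer cells of a type and less RNA per cell cannot be told apart.

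Of the 55 tested members 1 rose, the fibronectin gene Fn1, and 5 fell: the fibrillar collagen genes Col11a1 and Col5a1, the FACIT gene Col16a1, the perlecan gene Hspg2 and the smooth-muscle gene Tagln (edgeR's quasi-likelihood test, Benjamini-Hochberg adjusted p under 0.05 over 13919 genes). This was 1.82% higher and 9.09% lower. Over all genes tested 6.58% were called, 3.98% higher and 2.60% lower. With the replicate number as a block (the blocked fit), 2 members rose and 9 fell, the added ones being Sparc among the higher and Acta2, Col1a2, Col20a1 and Lama5 among the lower. That fit also called more genes in all, 1043 higher and 954 lower against 554 and 362. The labels do not state that libraries of the same number pair. With replicates 1 and 2 only, 2 members rose and 10 fell, and 1225 and 1169 of all genes did. An unadjusted p under 0.05 was found for 15 of the 55, against 21.2% of all genes tested. Values of PFF entirely above those of PBS were found for 5 tested members (9.09%, against 13.4% of all genes tested) and values entirely below for 8 (14.5%, against 11.6%), together 13 members against 25.0% of all genes, shares near the background. The median log2 fold change was −0.09 over the 55 members and 0.00 over all genes.

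**Figure D1:**
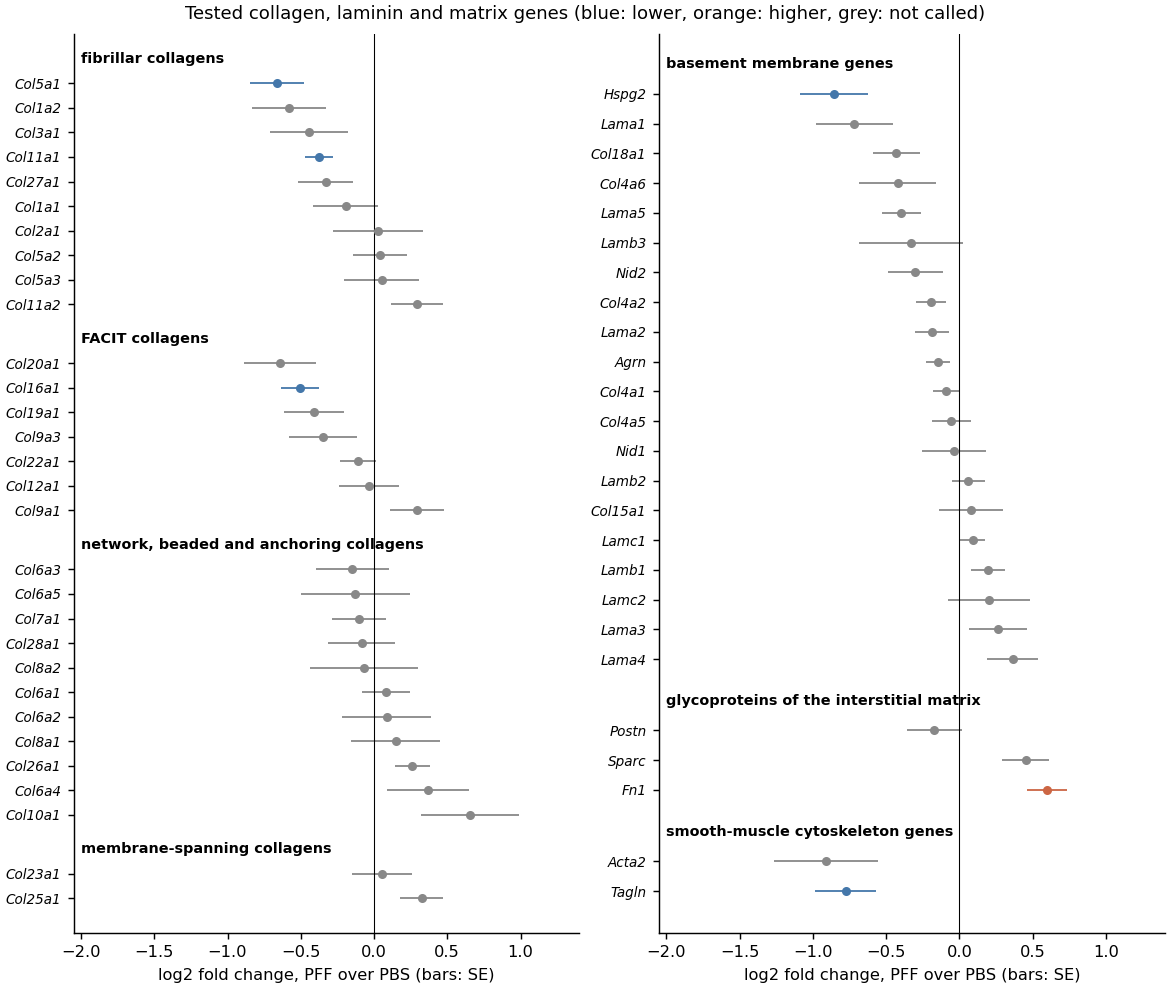
Log2 fold change of PFF over PBS for the 55 tested members, grouped by class, with bars of 1 standard error. The 5 genes called lower are blue, Fn1 is orange and the 49 others, most of whose bars reach or lie near 0, are grey.

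Of the fibrillar collagens 2 of 10 tested fell and none rose (0 at an unadjusted p under 0.05 among those higher, and 0 in DESeq2). Col11a1, whose chain nucleates and limits the width of fibrils, was at 25.5, 24.5 and 24.9 CPM in PBS 1 to 3 and 19.4, 18.1 and 20.1 CPM in PFF 1 to 3. All 3 PFF libraries lay below all 3 PBS libraries, and the libraries of each group were close together. The gene fell by 0.38 ± 0.10 on the log2 scale (SE, n = 3 per group here and below; adjusted p = 0.0321). Col5a1, the main chain of collagen V, which initiates collagen I fibrils, was at 11.5, 11.5 and 8.27 CPM in PBS 1 to 3 and 8.18, 5.77 and 5.73 CPM in PFF 1 to 3. PBS 3 was the lowest of the PBS libraries and lay just above PFF 1, and the groups did not overlap. It fell by 0.66 ± 0.18 (adjusted p = 0.0473). Their partner chains were not called. Col11a2 was at 6.38, 6.40 and 5.48 CPM in PBS 1 to 3 and 6.07, 7.34 and 8.99 CPM in PFF 1 to 3, with overlap between the groups. It had a log2 fold change of 0.29 ± 0.18, Col5a2 of 0.04 ± 0.19 and Col5a3 of 0.05 ± 0.26, and none passed the test (adjusted p = 0.359, 0.931 and 0.937). The call of Col11a1 ended when PBS 1 was left out (adjusted p = 0.121), PBS 2 (0.0790) or PBS 3 (0.0609), as with PFF 1 (0.0850) or PFF 2 (0.168), and that of Col5a1 when the library left out was PBS 1 (0.185), PBS 2 (0.146), PFF 2 (0.220) or PFF 3 (0.0677). DESeq2 did not call Col11a1 (0.0768), limma-voom did not call Col5a1 (0.0533), nor was it called with at least 50 counts in 3 samples required (0.0590), and scaling by library size alone called neither gene (0.0542 and 0.0765).

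**Figure D2:**
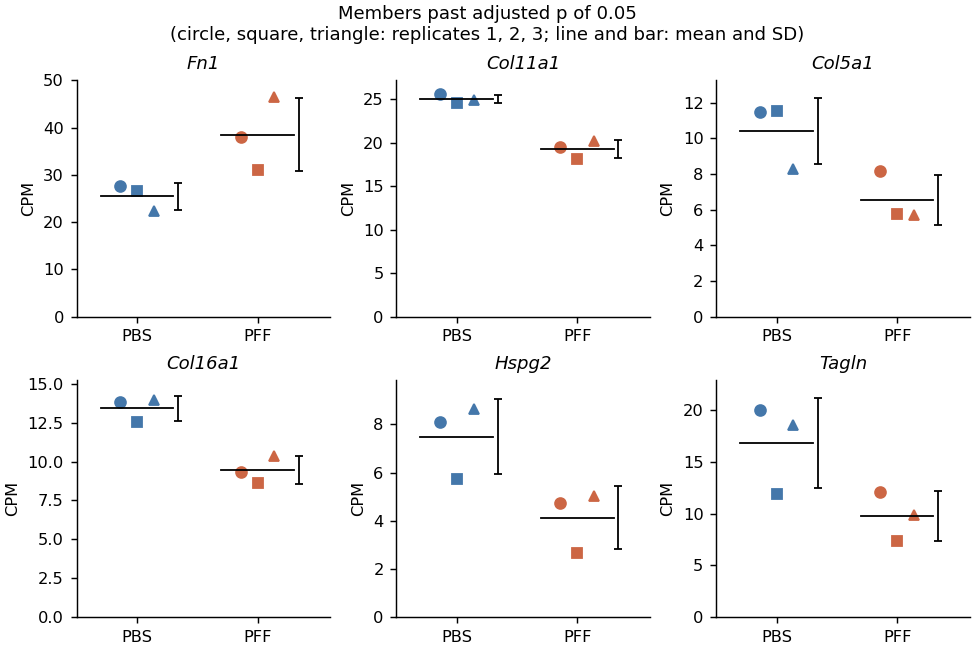
CPM of the 6 called members in each library, with circles, squares and triangles for replicates 1, 2 and 3, and the mean and SD of each group in black. The PFF points of Fn1 lie above all PBS points, those of Col11a1, Col5a1, Col16a1 and Hspg2 lie below, and those of Tagln overlap, with PBS 2 at 11.9 and PFF 1 at 12.1 CPM.

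Of the FACIT genes 1 of 7 tested fell. Col16a1, a minor collagen associated with fibrils and with cell attachment, was at 13.8, 12.5 and 13.9 CPM in PBS 1 to 3 and 9.34, 8.61 and 10.4 CPM in PFF 1 to 3. The groups were separated by a wider margin than the range within either one. It fell by 0.51 ± 0.13 (adjusted p = 0.0321). The call ended when the library left out was PBS 1 (0.118), PBS 3 (0.0800), PFF 1 (0.0940) or PFF 2 (0.169), and it was not made by DESeq2 (0.0647). Col20a1 was at 6.49, 6.89 and 3.46 CPM in PBS 1 to 3 and 3.66, 3.81 and 3.26 CPM in PFF 1 to 3. PBS 3 was level with the PFF libraries, and the gene was not called (log2 fold change −0.64 ± 0.24, adjusted p = 0.150), but it was in the blocked fit (adjusted p = 0.0440) and without PBS 3 (0.0144). The other tested FACIT genes ran from −0.41 ± 0.20 for Col19a1 to 0.29 ± 0.18 for Col9a1.

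The stretch before the annotated start is shown for the 4 genes called lower that have an entry in the RefSeq promoter table (GRCm38.p6, the assembly of mm10). These genes were picked by their call, and their windows were not compared with those of the members not called. Each is on the plus strand, 5′ to 3′, and ends before the start of the gene model. Capitals mark matches on either strand to GGGCGG, the core of a GC box, and to the CCAAT box. The motif TATAAA was searched in the same way, and no marked motifs overlap. The windows are chr2:27886175-27886424 for Col5a1, chr3:114030290-114030539 for Col11a1, chr4:130047590-130047839 for Col16a1 and chr4:137468553-137468768 for Hspg2, each of 250 bases except that of Hspg2, which is printed as 216 bases since the GENCODE gene model starts before the 250 end.
Col5a1: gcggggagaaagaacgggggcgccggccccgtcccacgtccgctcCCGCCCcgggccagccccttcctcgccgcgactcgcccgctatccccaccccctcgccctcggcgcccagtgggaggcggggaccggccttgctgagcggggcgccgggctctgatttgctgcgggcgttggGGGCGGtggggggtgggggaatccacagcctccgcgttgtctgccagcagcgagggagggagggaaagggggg
Col11a1: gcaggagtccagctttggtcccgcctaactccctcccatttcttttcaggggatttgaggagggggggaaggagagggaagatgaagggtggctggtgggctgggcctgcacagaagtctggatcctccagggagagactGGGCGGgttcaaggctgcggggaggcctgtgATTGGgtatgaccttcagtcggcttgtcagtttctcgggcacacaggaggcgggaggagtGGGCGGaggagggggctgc
Col16a1: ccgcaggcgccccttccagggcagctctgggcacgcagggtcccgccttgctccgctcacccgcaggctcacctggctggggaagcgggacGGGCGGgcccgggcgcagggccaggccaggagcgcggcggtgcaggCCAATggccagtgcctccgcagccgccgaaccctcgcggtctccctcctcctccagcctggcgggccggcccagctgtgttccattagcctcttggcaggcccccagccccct
Hspg2: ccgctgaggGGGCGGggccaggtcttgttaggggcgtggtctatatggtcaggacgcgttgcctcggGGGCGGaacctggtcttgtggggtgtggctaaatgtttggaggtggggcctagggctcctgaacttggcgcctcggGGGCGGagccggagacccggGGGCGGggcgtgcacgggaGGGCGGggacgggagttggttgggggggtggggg
Each of these windows holds GGGCGG, with 2 matches in Col5a1, 2 in Col11a1, 1 in Col16a1 and 5 in Hspg2. Col11a1 and Col16a1 hold 1 CCAAT each, and none holds TATAAA. Their GC content is 76.4% in Col5a1, 62.4% in Col11a1, 75.6% in Col16a1 and 70.8% in Hspg2, against a mean of 53.0% over all windows. Among the 46 members with an entry, 26 (56.5%) hold GGGCGG in the full 250 bases before the RefSeq start. Of all 27025 genes in the promoter table, whether tested here or not, 32.9% do. CCAAT stood in 30.4% of the member windows and 34.5% of all, and TATAAA in 10.9% and 13.0%. These matches describe the letters and are not sites of binding. Fn1 and Tagln have no entry.

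The main collagens of interstitial fibrils, types I and III, split the PFF libraries. Col1a1 was at 15.9, 12.6 and 16.1 CPM in PBS 1 to 3 and 10.4, 9.68 and 18.9 CPM in PFF 1 to 3. Col1a2, the other chain of collagen I, was at 15.4, 14.4 and 16.4 CPM in PBS 1 to 3 and 9.82, 5.77 and 15.3 CPM in PFF 1 to 3. Col3a1, the only chain of collagen III, was at 14.3, 11.3 and 15.1 CPM in PBS 1 to 3 and 8.57, 6.06 and 15.2 CPM in PFF 1 to 3. For all 3 genes PFF 1 and PFF 2 lay below every PBS library, and PFF 3 lay within the PBS range or above it. Their log2 fold changes of −0.19 ± 0.22, −0.58 ± 0.25 and −0.45 ± 0.27 did not pass (adjusted p = 0.672, 0.218 and 0.368). In the blocked fit Col1a2 was called (adjusted p = 0.0423) and Col1a1 and Col3a1 were not (0.365 and 0.0598). Without PFF 3 all 3 passed, at −0.56, −0.98 and −0.88 (adjusted p = 0.0223, 0.00248 and 0.00480), as they did with replicates 1 and 2 only (0.0324, 0.00170 and 0.00398).

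Several fibroblast markers ordered the PFF libraries in a like way. Decorin (Dcn), a proteoglycan that binds collagen fibrils, was at 5.73, 7.37 and 8.75 CPM in PBS 1 to 3 and 5.10, 3.33 and 9.78 CPM in PFF 1 to 3. Lumican (Lum), of the same family, was at 2.38, 1.75 and 2.60 CPM in PBS 1 to 3 and 0.963, 0.880 and 2.07 CPM in PFF 1 to 3. Igf2, which fibroblasts of the meninges express strongly, was at 55.5, 49.5 and 44.9 CPM in PBS 1 to 3 and 33.6, 26.3 and 55.1 CPM in PFF 1 to 3. In each of the 3, PFF 3 was the highest PFF library and PFF 2 the lowest. The order in PBS was not shared, with Dcn rising and Igf2 falling from PBS 1 to PBS 3. PFF 3 was the highest PFF library for 6 of the 7 tested markers, all but Ogn. This was not particular to fibroblast markers. PFF 3 was also the highest PFF library for every astrocyte marker except Slc1a2 and Gjb6, with Gfap at 1580, 1615 and 2309 CPM in PFF 1 to 3. No share over all genes was counted for this order. Of the 14 fibroblast and meningeal markers 7 were tested and none was called, with a median log2 fold change of −0.30 and 2 at an unadjusted p under 0.05, both lower. Among the 7, 5 log2 fold changes were negative and 2 positive, from −0.96 to 0.21. The blocked fit called Igfbp2 lower (log2 fold change −0.30 ± 0.15 without the block, adjusted p = 0.0230 with it), and replicates 1 and 2 alone called Igf2 (1.81e-05) and Foxc1 (0.00311) lower. Slc22a6 had no count, and Slc6a13, Aldh1a2, Foxc2, Foxd1 and Twist2 were below 1 CPM in every library. Between libraries of the same number, the median log2 ratio of PFF over PBS for the 10 fibrillar genes was −0.39 in replicate 1, −0.34 in replicate 2 and −0.04 in replicate 3 (ratios of CPM + 0.5). For the 7 fibroblast markers it was −0.30, −0.70 and 0.15, and for all genes tested 0.00, 0.00 and 0.01. The part of fibroblast content in the collagen values was not tested.

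**Figure D3:**
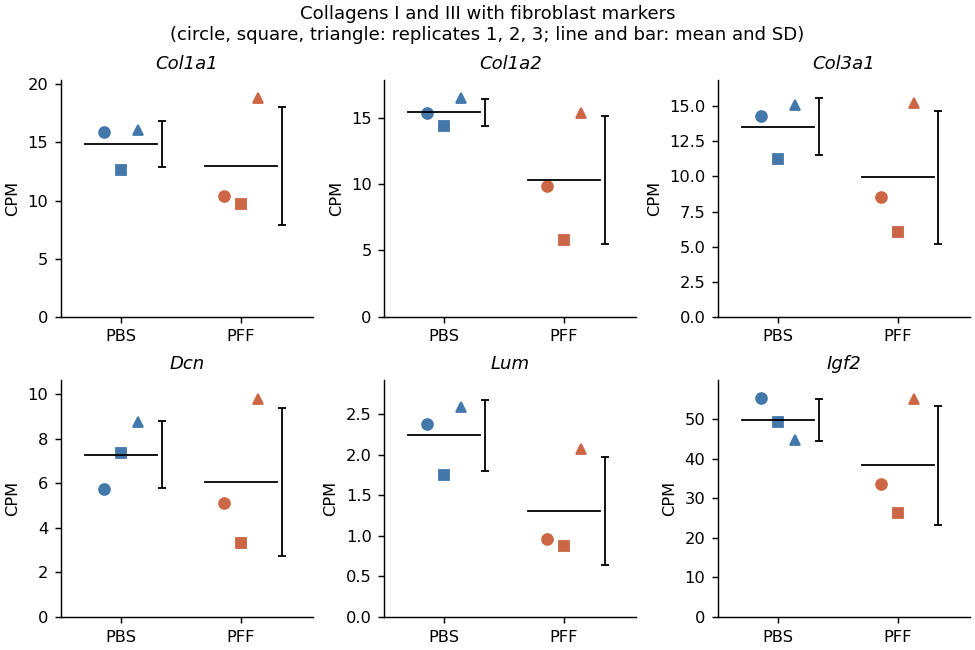
CPM of Col1a1, Col1a2 and Col3a1 and of the fibroblast markers Dcn, Lum and Igf2 in each library, with circles, squares and triangles for replicates 1, 2 and 3, and the mean and SD of each group in black. In all 6 panels the triangle of PFF 3 is far above the circle and square of PFF, and within or above the range of the PBS points.

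The ratio of collagen I chains was compared per length, since the protein combines both chains in a fixed proportion. Col1a1 over Col1a2, each in CPM per kilobase of annotated exon (CPM per kb), was 1.96, 1.66 and 1.85 in PBS 1 to 3 and 2.0, 3.18 and 2.33 in PFF 1 to 3. The PFF ratios all lay above the PBS ratios, by a small margin for PFF 1 and the most in PFF 2, where Col1a2 had its lowest value. No test was made of this ratio. Its level depends on the annotated exon lengths, 6.563 kb for Col1a1 and 12.426 kb for Col1a2. In CPM the genes were near each other, with means of 13.9 for Col1a1 and 12.8 for Col1a2 over all libraries. The remaining fibrillar genes, Col27a1 and Col2a1, had log2 fold changes of −0.33 ± 0.19 and 0.03 ± 0.31 and were not called.

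Per length, the most abundant fibrillar transcripts over all 6 libraries were Col1a1 (2.12 CPM per kb), Col11a1 (1.73), Col3a1 (1.20), Col1a2 (1.03), Col5a1 (1.0) and Col11a2 (0.986). The ranges over libraries of neighbours in this order overlap, for example 1.48 to 2.87 for Col1a1 and 1.42 to 2.0 for Col11a1. The order also depends on the annotated exon lengths. Col2a1, the collagen of cartilage, was near the bottom at 0.161 CPM per kb.

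Of 20 basement membrane genes tested 1 fell and none rose (0 higher at an unadjusted p under 0.05, and 0 in DESeq2), and the median log2 fold change was −0.12, against −0.26 for the 10 fibrillar genes, a difference that was not tested. In the blocked fit 2 fell. Perlecan (Hspg2), the large heparan sulfate proteoglycan that binds laminin, nidogen and growth factors, was at 8.11, 5.72 and 8.65 CPM in PBS 1 to 3 and 4.72, 2.64 and 5.04 CPM in PFF 1 to 3. All PFF libraries were below all PBS libraries, with PFF 2 at less than any other. It fell by 0.86 ± 0.23 (adjusted p = 0.0433). The call of Hspg2 ended on leaving out PBS 1 (0.167), PBS 3 (0.122), PFF 1 (0.0617) or PFF 2 (0.200), and it was not made with limma-voom (0.0508), with scaling by library size alone (0.0537) or with at least 50 counts required (0.0550).

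Agrin (Agrn), the proteoglycan that clusters acetylcholine receptors at the neuromuscular junction and that neurons of the brain also make, was by far the most abundant basement membrane transcript at 21 CPM per kb. Its values were 211, 219 and 186 CPM in PBS 1 to 3 and 191, 189 and 176 CPM in PFF 1 to 3. The groups overlapped in PBS 3, which lay between PFF libraries, and the log2 fold change of −0.15 ± 0.08 did not pass (adjusted p = 0.314).

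The collagen IV genes lie in head-to-head pairs. Col4a1 and Col4a2, the chains of the collagen IV found in nearly all basement membranes, start within a few bases of each other on opposite strands, Col4a1 on chromosome 8 from 11198423 to 11312826 and Col4a2 on chromosome 8 from 11312805 to 11449287. Col4a1 was at 24.7, 26.3 and 25.3 CPM in PBS 1 to 3 and 23, 23.5 and 25.2 CPM in PFF 1 to 3. Col4a2 was at 29.3, 25.5 and 23.9 CPM in PBS 1 to 3 and 23.6, 22.4 and 22.7 CPM in PFF 1 to 3. Col4a1 overlapped between the groups, while the PFF values of Col4a2 lay just below those of PBS. Neither was called (log2 fold changes −0.09 ± 0.09 and −0.19 ± 0.10, adjusted p = 0.631 and 0.292). Col4a1 over Col4a2, per length, was 0.865 ± 0.104 in PBS and 0.926 ± 0.0591 in PFF (SD, n = 3). Col4a5 was at 20.0, 19.6 and 23.2 CPM in PBS 1 to 3 and 18.5, 17.6 and 24.4 CPM in PFF 1 to 3, and the groups overlapped. Col4a5 and Col4a6, the X-linked pair, differed in level (3.06 and 0.614 CPM per kb) and were not called (−0.06 ± 0.13 and −0.42 ± 0.26). Col4a3 and Col4a4, which form the network of the kidney glomerulus and lung, were at most at 1.35 CPM, in PBS 3 for Col4a4. The endostatin collagen gene Col18a1 was at 9.84, 9.41 and 8.94 CPM in PBS 1 to 3 and 7.41, 5.48 and 8.0 CPM in PFF 1 to 3. The groups did not overlap, but the log2 fold change of −0.43 ± 0.16 did not pass (adjusted p = 0.142), and it did with replicates 1 and 2 only (0.0395). The related Col15a1 was at 0.08 ± 0.22.

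Among the 11 laminin chains 10 were tested and none was called (2 at an unadjusted p under 0.05, both lower, and 0 in DESeq2). The γ1 gene Lamc1, whose chain is part of most laminins, was at 35.2, 33.8 and 34.3 CPM in PBS 1 to 3 and 37.6, 34.4 and 37.8 CPM in PFF 1 to 3, a log2 fold change of 0.09 ± 0.09. Lamb2 and Lamb1, the β chains, had 0.06 ± 0.11 and 0.19 ± 0.12, and Lamb2 was at 17.1, 17.5 and 20.8 CPM in PBS 1 to 3 and 18.6, 18.6 and 20.6 CPM in PFF 1 to 3. The groups overlapped in all 3, and none passed (adjusted p = 0.597 for Lamc1, 0.809 for Lamb2 and 0.365 for Lamb1). The α chains, which carry the sites for cell receptors, were lower in level than the β and γ chains and diverged. Lama5 was at 12.4, 11.3 and 12.7 CPM in PBS 1 to 3 and 10.0, 8.70 and 8.89 CPM in PFF 1 to 3. Lama1, an α chain of embryonic and pial basement membranes, was at 5.19, 6.30 and 5.19 CPM in PBS 1 to 3 and 3.47, 1.86 and 4.84 CPM in PFF 1 to 3. Lama4, an α chain of vessel basement membranes, was at 5.08, 6.40 and 4.81 CPM in PBS 1 to 3 and 7.80, 6.65 and 6.52 CPM in PFF 1 to 3. PFF values lay below PBS for Lama5 and Lama1 and above it for Lama4, with no overlap in these 3 genes. None of them passed (log2 fold changes −0.40 ± 0.13, −0.72 ± 0.26 and 0.36 ± 0.17, adjusted p = 0.0957, 0.132 and 0.243). The blocked fit called Lama5 (adjusted p = 0.0475), and Lama1 passed without PFF 3 (0.0137). Lama2, mutated in congenital muscular dystrophy, had −0.19 ± 0.12, and Lama3, of epithelial laminin and also without overlap, 0.26 ± 0.20.

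Summed per length, the α chain transcripts were at 3.35, 3.40 and 3.42 CPM per kb in PBS 1 to 3 and 3.09, 2.67 and 3.14 in PFF 1 to 3. The γ chains were at 4.46, 4.31 and 4.46 in PBS and 4.84, 4.47 and 4.79 in PFF. The α sum was lower in each PFF library and the γ sum higher, the latter by a narrow margin in PFF 2, while the β sum overlapped (5.60 ± 0.113 in PBS and 6.0 ± 0.611 in PFF, SD, n = 3). No test was made of these sums. The nidogens that link the networks, Nid1 and Nid2, had log2 fold changes of −0.04 ± 0.22 and −0.30 ± 0.19 and were not called.

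**Figure D4:**
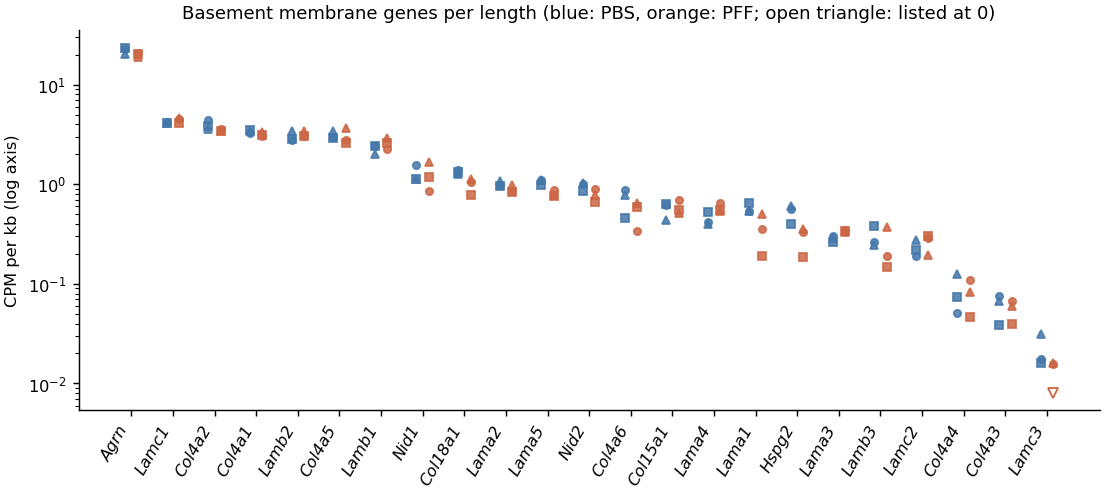
Level per length of the 23 basement membrane genes in each library on a log axis, with PBS blue, PFF orange and circles, squares and triangles for replicates 1, 2 and 3. Agrn stands alone at about 21 CPM per kb, a group from Lamc1 to Lamb1 lies between 2.01 and 4.57, and Col4a4, Col4a3 and Lamc3 are at the bottom, with Lamc3 listed at 0 in PFF 2.

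Fibrillar and basement membrane genes were then set against each other in each library. The fibrillar sum was 11.1, 9.91 and 10.8 CPM per kb in PBS 1 to 3 and 8.13, 7.16 and 11.1 in PFF 1 to 3. The basement membrane sum was 52.8, 52.2 and 49.5 in PBS and 47.8, 46.5 and 49.3 in PFF. PFF lay below PBS in the second sum, narrowly between PBS 3 and PFF 3, but Agrn alone made up 38.5 to 45.2% of it, and without Agrn the groups overlapped (29.4 ± 0.760 in PBS and 27.9 ± 2.17 in PFF, SD, n = 3). The ratio of the fibrillar to the basement membrane sum was 0.211, 0.190 and 0.218 in PBS and 0.170, 0.154 and 0.224 in PFF. It was below every PBS value in PFF 1 and PFF 2 and above every one in PFF 3. No test was made of these sums or of the difference between the classes.

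**Figure D5:**
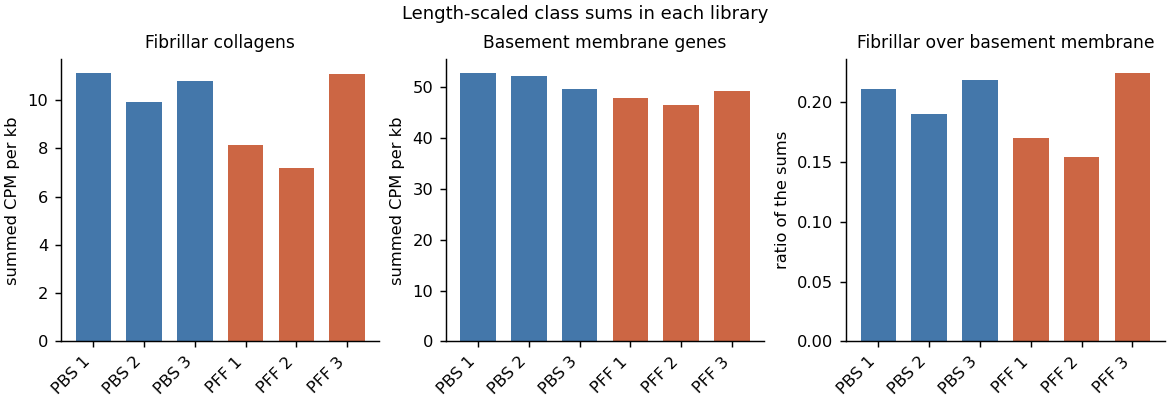
Summed level per length of the 11 fibrillar and the 23 basement membrane genes and their ratio, 1 bar for each library, with PBS blue and PFF orange. In the panels of the fibrillar sum and of the ratio PFF 1 and PFF 2 are lower than the PBS bars and PFF 3 is as high as or higher than them, while the bars of the second panel are nearly level.

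Of 3 glycoproteins of the interstitial matrix 1 rose. Fibronectin (Fn1), the adhesive glycoprotein that cells assemble into fibrils through integrins, lies on chromosome 1 from 71585520 to 71653200. It was at 27.6, 26.6 and 22.3 CPM in PBS 1 to 3 and 38, 31 and 46.5 CPM in PFF 1 to 3. Every PFF library was above every PBS library, and PFF 3 was the highest. Fn1 rose by 0.60 ± 0.14 (adjusted p = 0.0181). It passed in each alternative except without PBS 3 (0.0660). Osteonectin (Sparc), a collagen-binding glycoprotein that astrocytes and microglia release in culture, was the most abundant member at 72.1 CPM per kb. Sparc was at 239, 187 and 266 CPM in PBS 1 to 3 and 293, 259 and 395 CPM in PFF 1 to 3. The groups overlapped only in that PBS 3 lay above PFF 2, and the gene was not called (log2 fold change 0.45 ± 0.16, adjusted p = 0.133). The blocked fit called it higher (adjusted p = 0.000236), and each PFF library exceeded the PBS library of its number. Periostin (Postn), made by fibroblasts, had −0.17 ± 0.19 and was not called. In the same libraries the microglia and macrophage markers had a median log2 fold change of 1.35, and of 10 astrocyte markers 3 fell and none rose, with sums of 3661 to 4789 CPM in PBS and 3543 to 4554 CPM in PFF. Their part in the values of Fn1 and Sparc was not tested.

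Of 2 smooth-muscle cytoskeleton genes 1 fell. Transgelin (Tagln), an actin-binding protein of smooth muscle and myofibroblasts, was at 20.0, 11.9 and 18.6 CPM in PBS 1 to 3 and 12.1, 7.34 and 9.88 CPM in PFF 1 to 3. PBS 2 was the lowest PBS library and lay between PFF 3 and PFF 1. Tagln fell by 0.78 ± 0.21 (adjusted p = 0.0410), and in the blocked fit the adjusted p was 0.000253. Exons of Pcsk7 and Gm48529 on the opposite strand cover 67.9% of the exonic bases of Tagln, and the strand setting of the counting is not given in the sources used here, so its counts are uncertain. Smooth-muscle actin (Acta2) was at 13.6, 7.37 and 11.1 CPM in PBS 1 to 3 and 9.34, 2.93 and 4.64 CPM in PFF 1 to 3. PBS 2 again had the lowest value of its group, below PFF 1. Acta2 did not pass (log2 fold change −0.91 ± 0.35, adjusted p = 0.176), but it did in the blocked fit (0.000927) and without PFF 1 (0.00500). Tagln was not called on leaving out PBS 1 (0.177), PBS 3 (0.133), PFF 2 (0.189) or PFF 3 (0.0553), nor with replicates 1 and 2 only (0.253). Of the 12 other smooth-muscle genes 8 were tested and none was called (2 at an unadjusted p under 0.05, both lower). Smtn had the smallest p, with a log2 fold change of −0.64 ± 0.22 (adjusted p = 0.116), and passed in the blocked fit (0.0446). Myh11, a marker of mature smooth muscle, and Des, a gene of muscle cells, were at most at 0.391 CPM, in PFF 2 for Myh11. Mural cell markers, which include those of vessel smooth muscle, summed to 34.5 to 43.2 CPM in PBS and 39.9 to 47.4 CPM in PFF. Of the 4 tested 1 was called higher (Anpep, 2.15 ± 0.28) and none lower. The log2 fold changes of these 4 ran from −0.60 to 2.15, 2 positive and 2 negative, with a median of 0.04. The part of mural cells in the values of Tagln and Acta2 was not tested.

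Of the network, beaded and anchoring collagens 11 of 12 were tested and none was called (1 at an unadjusted p under 0.05). The largest log2 fold change of the class was that of Col10a1, 0.66 ± 0.33 (adjusted p = 0.277). Its mean was 1.95 CPM, and the groups overlapped. The collagen VI genes, whose microfibrils surround many cells, ran from −0.15 ± 0.25 for Col6a3 to 0.37 ± 0.28 for Col6a4. Col26a1, the most abundant of them by CPM, was at 14.2, 15 and 18.2 CPM in PBS 1 to 3 and 17.9, 19.3 and 19.8 CPM in PFF 1 to 3, a log2 fold change of 0.26 ± 0.12 (adjusted p = 0.226). PBS 3 exceeded PFF 1, and the other libraries were separated. Of the collagens that span the membrane, Col25a1, a collagen of neurons found in amyloid plaques, was at 7.03, 8.05 and 6.63 CPM in PBS 1 to 3 and 9.63, 8.41 and 9.18 CPM in PFF 1 to 3. The groups did not overlap, but Col25a1 was not called (0.33 ± 0.15, adjusted p = 0.220), nor was Col23a1 (0.05 ± 0.20).

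Other genes of collagen and basement membrane biology were counted in 6 lists. Of their 94 tested genes 4 rose (4.26%, against 3.98% of all genes tested) and 1 fell (1.06%, against 2.60%). These shares were near or below the background. In the blocked fit 9 rose and 8 fell, where 1043 and 954 of all 13919 genes did. Of the 30 genes that modify and process collagen 1 rose, the lysyl hydroxylase gene Plod1, from 15.4 ± 2.06 to 21.8 ± 3.71 CPM (0.50 ± 0.14, adjusted p = 0.0490). The collagen chaperone Serpinh1 had −0.32 ± 0.15 and the prolyl hydroxylase P4ha1 −0.02 ± 0.08, and neither was called, but the blocked fit called Serpinh1 lower (adjusted p = 0.0170). Of 14 receptors 1 rose and 1 fell, and in the blocked fit 2 rose and 2 fell (Itga6 and Lrp4 added). Lair1, an inhibitory collagen receptor of leukocytes, rose from 6.62 ± 1.96 to 11.6 ± 1.36 CPM (0.82 ± 0.19, adjusted p = 0.0195), beside microglia markers with a median of 1.35, whose part was not tested. Ddr2, the receptor kinase for fibrillar collagen, fell from 24.8 ± 2.24 to 17.8 ± 2.35 CPM (−0.48 ± 0.12, adjusted p = 0.0271). The common β1 integrin Itgb1 (0.02 ± 0.09) and dystroglycan Dag1 (0.13 ± 0.09), which bind laminin, were not called, though Dag1 passed with replicates 1 and 2 only (0.0265).

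Of 21 elastic fibre and other basement membrane genes 1 rose, the nephronectin gene Npnt, from 18.5 ± 0.520 to 24.2 ± 1.62 CPM (0.39 ± 0.10, adjusted p = 0.0333). The blocked fit added Smoc1, which was lower. Of 15 matricellular genes 1 rose, the osteopontin gene Spp1, from 101 ± 28 to 331 ± 55.7 CPM (1.72 ± 0.19, adjusted p = 0.000655). In the blocked fit 5 matricellular genes rose (Cyr61, Nov, Spock1 and Spock3 added) and 3 fell (Sparcl1, Thbs3 and Tnr). Of 6 small leucine-rich proteoglycans none was called. Lum had the smallest p there (log2 fold change −0.78 ± 0.34, adjusted p = 0.214). Leaving out 1 library ended the call of Plod1 without each library except PBS 3 (adjusted p from 0.0586 without PFF 1 to 0.171 without PBS 2), and that of Ddr2 without PBS 2 (0.0820), PBS 3 (0.0748), PFF 1 (0.0672) or PFF 2 (0.158). The call of Lair1 ended on leaving out PBS 2 (0.0631), PBS 3 (0.0596) or PFF 1 (0.0733), and that of Npnt on leaving out PBS 1 (0.113), PBS 2 (0.0843), PBS 3 (0.0784), PFF 1 (0.0662) or PFF 2 (0.185). Plod1 was also not called with upper quartile scaling (0.0575), at least 50 counts in 3 samples (0.0614), limma-voom (0.0557) or no robust estimation (0.0506), and DESeq2 did not call Npnt (0.0792). Spp1 passed without each library in turn, and not with replicates 1 and 2 only (0.148).

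In GENCODE vM21 on GRCm38, the called members lie on chromosome 3 from 114030540 to 114220718 (Col11a1), chromosome 2 from 27886425 to 28039514 (Col5a1), chromosome 4 from 130047840 to 130099283 (Col16a1), chromosome 4 from 137468769 to 137570630 (Hspg2) and chromosome 9 from 45929619 to 45936058 (Tagln), besides Fn1 given above. All encode proteins, and the values cover the whole gene. Of the 64 members Tagln alone has more than 10% of its exonic bases inside another gene.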

How the data were processed

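Total RNA of 6 samples, 3 with PBS and 3 with PFF, was made into libraries with a directional kit, per the labels' protocols. The authors deposited estimated counts per gene symbol, not scaled between libraries, and 8.69% of the values were not whole numbers. Trim Galore 0.6.6, STAR 2.7.9a, DESeq2 1.38.3 and mm10 are named in the submitters' processing notes. Neither the counting tool nor its strand setting or annotation is given in the sources used here. Columns were matched to samples by name. The members, gene lists and alternatives were chosen with earlier results of these data known.

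Estimated counts were rounded. In R 4.3.3, edgeR 4.0.16's filterByExpr kept 13919 of 24411 genes, which were scaled by TMM and tested with the robust quasi-likelihood F-test on the group alone, two-sided, at a Benjamini-Hochberg adjusted p under 0.05. CPM are TMM-scaled counts per 1000000 of the library total, and the standard error is the log2 fold change over the root of F. CPM per kb used the union of exons in GENCODE vM21, whose lengths may differ from the transcripts present. The common dispersion was 0.00642. On simulated data for the 13919 genes of this comparison, 50 genes were changed at each of 4 sizes. The test called 9 of those changed 1.25-fold, 34 of those changed 1.5-fold, 48 of those changed 2-fold and 50 of those changed 4-fold. It also called 12 unchanged genes. The changed genes were drawn at random from all genes tested, and the simulated libraries shared no deviation by replicate number. The shares called may therefore differ for the members. Listed symbols Ccn1, Ccn2 and Ccn3 stand in the table under the synonyms Cyr61, Ctgf and Nov.

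Values in each library were given for called members, for members with a mean of at least 5 CPM and no overlap between groups, and for the 6 highest per length in the fibrillar and basement membrane classes. Of each further list the called genes were named or, with none, that of smallest p. Sparc, Acta2, Lama1, Col20a1, Col26a1, Postn, Lamb1, Serpinh1, P4ha1, Itgb1 and Dag1 and the fibroblast markers shown were picked after their values were seen. Deviations from the group means correlated over genes between libraries of the same number at 0.125, 0.143 and 0.270 for numbers 1, 2 and 3. PBS 2 and PFF 1, of unlike numbers, reached 0.181, above numbers 1 and 2, and the other unlike pairs were negative. The numbers were still taken to pair the libraries in the blocked fit. The labels do not state this pairing, and in these values only number 3 exceeded every unlike pair. Alternatives were DESeq2 1.42.0, limma-voom (limma 3.58.1), other scalings and filters, a replicate block, replicate 3 left out or as a batch term, and each library left out in turn.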

Additional observations from a re-analysis of the deposited data

How the results depend on the processing

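Under every alternative that tested them, 40 of the 55 tested members kept their sign. The others changed sign at least once, none with a call in any alternative. Among the members shown in each library that was Col4a5, with log2 fold changes from −0.214 without PFF 3 to 0.0335 without PFF 2 (0.0257 without PBS 3 and 0.0016 without PFF 1), and it was never called. Members called lower numbered 2 with scaling by library size alone, 3 with at least 50 counts in 3 samples, 3 in DESeq2, 3 with limma-voom, 9 with the replicate block and 10 with replicates 1 and 2 only. Members called higher numbered 2 with the block, 2 with a batch term for replicate 3 and 2 without replicate 3. Leaving out each library gave 0 to 1 higher and 0 to 7 lower, with 0 lower without PBS 1 or PFF 2 and 0 higher without PBS 3. Fibrillar genes lower numbered 0 with library size alone, 1 with the stricter filter, 1 in DESeq2, 1 with limma-voom and 5 with replicates 1 and 2 only, and 0 to 4 with a library left out. Basement membrane genes lower numbered 0 with library size alone, 0 with the stricter filter, 0 with limma-voom, 2 with the block, 3 with replicates 1 and 2 only and 2 at an adjusted p under 0.1, and 0 to 2 with a library left out. No basement membrane or fibrillar gene was called higher in any alternative. Members without overlap numbered 3 higher with the stricter filter, and 10 higher and 24 lower with replicates 1 and 2 only, where fewer libraries make separation easier. With a library left out they numbered 5 to 9 and 8 to 18. The median of the basement membrane genes was −0.192 with replicates 1 and 2 only and −0.1877 to −0.07694 with a library left out, and that of the fibrillar genes −0.4205 to −0.1054. In the 6 further lists, genes higher numbered 9 with the block, 11 with replicates 1 and 2 only, 8 with replicate 3 as a batch term and 1 to 4 with a library left out. Genes lower numbered 3 without a filter, 2 in DESeq2, 8 with the block, 6 with replicates 1 and 2 only, 6 with the batch term, 2 at an adjusted p under 0.1 and 0 to 9 with a library left out. Fewer genes enter with the stricter filter and fewer samples with left-out libraries. The cause of the changed counts was not tested in any alternative. Over all genes, 554 higher and 362 lower became 1043 and 954 with the block, 1225 and 1169 with replicates 1 and 2 only, 1029 and 976 with the batch term, 776 and 615 at an adjusted p under 0.1, 354 and 157 without PBS 1, 312 and 100 without PFF 2 and 869 and 987 without PFF 3. The block ended none of the 6 calls among members, and beyond the 5 genes it added, all named above, it changed no other member's call. At this depth and number of libraries, most changes of 1.25-fold would be missed, and members below about 1 CPM give no test.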
